A study of Mus musculus with 6 samples.

Results

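Whole-genome bisulfite sequencing reads each cytosine as C where it was methylated and as T where it was not. The windows described here are the 1 kb tiles of the autosomes and unplaced sequences that held 100 or more such calls in each of 6 libraries, with both strands of a CpG merged. The mitochondrial, X and Y sequences, the Rn45s ribosomal RNA copy, a block on chromosome 2, the major satellite arrays and the Sfi1 locus were left out, which removed 161 of 2541 deeply read tiles. There remained 2380 tiles of the 2046691 that held any CpG, in 2186 regions of adjoining tiles. Tiles were chosen by their number of calls, which is given as a description only, and methylation levels played no part in the choice.

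The cells were male germ cells, taken from mouse pups aged 2.5 days after birth and sorted by fluorescence of an Oct4-GFP reporter that all groups carried. Pups born to heterozygous parents were Tex15+/+ (Tex15WT, pups 8 and 9), Tex15+/- (Tex15HT, pups 7 and 18) or Tex15-/- (Tex15KO, pups 3 and 16), with 2 pups in each group. How the Tex15 allele was made is not given in the sources used here. The table holds cytosine calls and no expression, so the sorted cell type was not checked against marker genes. Tex15WT and Tex15HT pups are called the 4 controls where both groups are used at once.

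TEX15 is a germ cell protein needed for the piRNA-guided silencing of retrotransposons in fetal male germ cells, the period in which the male germline regains DNA methylation after its erasure. A sequence present in more copies in the animal than in the genome assembly collects the reads of all copies, so its level is an average over copies that cannot be told apart. A CpG island, a stretch dense in CpGs at many gene starts, also collects many calls per tile because it has many CpGs to read, and such islands are mostly unmethylated.

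Most of the 2380 tiles were of the second kind, which goes against their working description as collapsed repeats. In 2018 tiles the shallowest library had fewer than 5 calls per CpG, with a median over tiles of 3.04 to 5.05 in the 6 libraries. These tiles were deep because they held a median of 51 CpGs, against 8 in all tested tiles, and 837 of them held a RefSeq gene start placed by the spacing of its CpGs. The other 362 tiles had 5 or more calls per CpG in every library, with medians of 18.3 to 32.2, and held a median of 13 CpGs and 6 placed gene starts. The value of 5 was set after the distribution was seen: 38 tiles lay between 4 and 5 calls per CpG and 21 between 5 and 6. The 362 are called stacked tiles below, and the 2018 CpG-dense tiles.

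**Figure D1:**
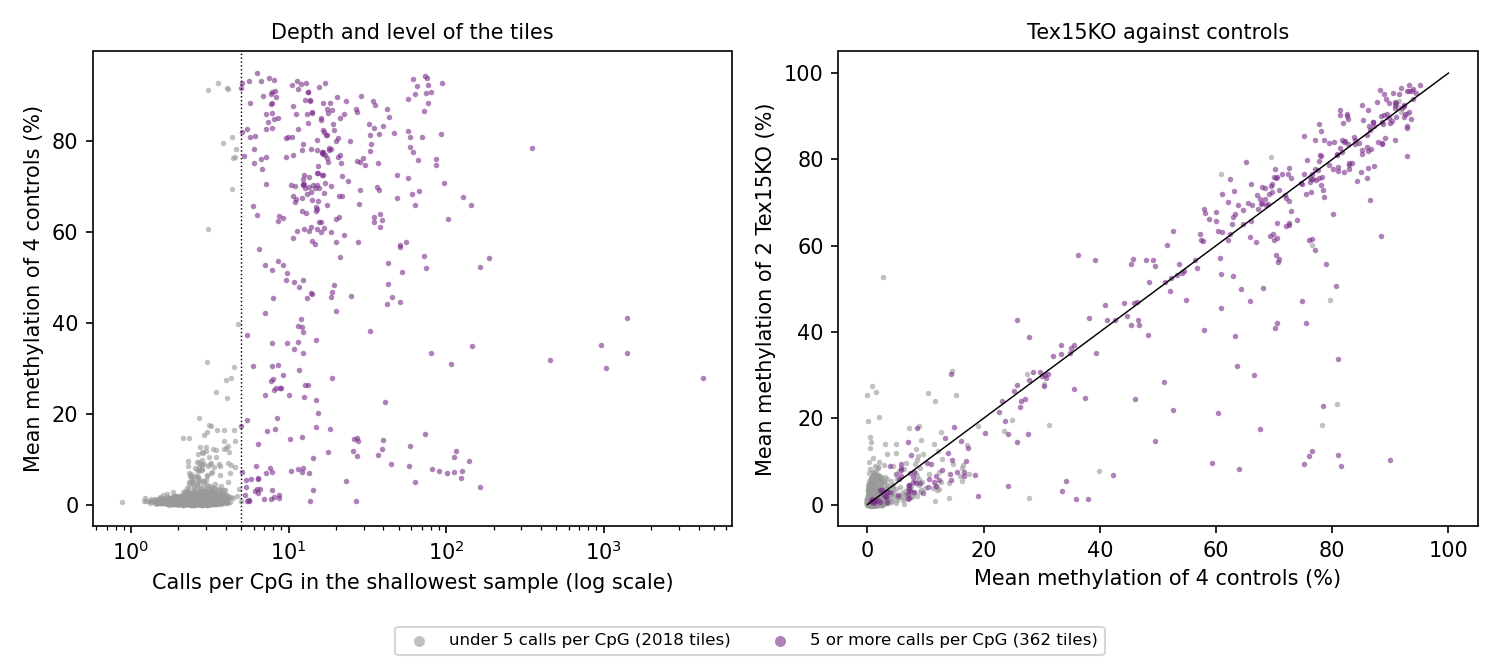
Left, calls per CpG in the shallowest library (log scale) against the mean methylation (%) of the 4 controls for 2018 CpG-dense tiles (grey) and 362 stacked tiles (purple), with the division at 5 calls per CpG dotted. Right, the mean of the 4 controls against the mean of the 2 Tex15KO pups, with the line of equal levels. The CpG-dense tiles crowd near 0, and the tiles far from the line lie mostly below it, most of them stacked.

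Each of the 6 libraries gave 27495658 to 52935635 calls, of which the 2380 tiles took 2.14% to 2.66%. Tex15KO 3 stood apart: 71.5% of the CpGs in the table had no call in it, against 1.46% to 8.70% in the others. Its level lay 10 points or more outside the range of the other 5 libraries in 85 of the 2380 tiles, 52 above and 33 below, whereas Tex15KO 16 did so in 8. The tile with the largest such excess, chr4:107356001-107357000 (49 CpGs, at the start of Dmrtb1, which encodes a transcription factor of spermatogenesis), read 96.9% in Tex15KO 3 and 0% to 8.66% in the other 5. Some counts and single tiles below are given with and without this library. The shares of tiles below or above all controls, and the medians over all tested tiles, include it.

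The sequences below show the kinds of locus the results turn on. All are RefSeq promoters of build GRCm38.p6, from 250 bases before to 50 after the gene start, written 5′ to 3′ on the gene's strand with every CpG in capitals. The calls use build mm9, so each promoter was placed by its CpG spacing and not by its coordinates. Pou5f1 encodes the pluripotency factor OCT4, and 10 of the 11 CpGs of its promoter were matched. Hjurp encodes the chaperone that loads the centromeric histone, Tmem267 a membrane protein, and Gm40237 is a predicted gene. Among promoters in the stacked tiles, the largest change was in calls placed on the Pou5f1 sequence, which lies in an interval read far deeper than its flanks. Hjurp is an unmethylated island inside a stacked methylated cluster, and Tmem267 is a stacked island that was methylated in all 6 libraries.
Pou5f1 (chr17:35505782-35506081, + strand): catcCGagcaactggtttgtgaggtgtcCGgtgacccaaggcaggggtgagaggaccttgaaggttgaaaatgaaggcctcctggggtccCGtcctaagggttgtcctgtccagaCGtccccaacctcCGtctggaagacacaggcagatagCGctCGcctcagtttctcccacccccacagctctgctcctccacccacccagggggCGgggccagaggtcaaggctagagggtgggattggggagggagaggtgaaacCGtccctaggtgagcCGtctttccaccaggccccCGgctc
Hjurp (chr1:88277530-88277829, - strand): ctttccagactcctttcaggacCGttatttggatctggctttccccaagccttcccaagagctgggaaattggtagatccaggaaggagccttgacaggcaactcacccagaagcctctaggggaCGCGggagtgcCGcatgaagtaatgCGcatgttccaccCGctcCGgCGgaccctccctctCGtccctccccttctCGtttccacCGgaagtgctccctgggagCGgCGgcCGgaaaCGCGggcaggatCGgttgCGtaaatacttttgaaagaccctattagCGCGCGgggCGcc
Tmem267 (chr13:119488223-119488522, + strand): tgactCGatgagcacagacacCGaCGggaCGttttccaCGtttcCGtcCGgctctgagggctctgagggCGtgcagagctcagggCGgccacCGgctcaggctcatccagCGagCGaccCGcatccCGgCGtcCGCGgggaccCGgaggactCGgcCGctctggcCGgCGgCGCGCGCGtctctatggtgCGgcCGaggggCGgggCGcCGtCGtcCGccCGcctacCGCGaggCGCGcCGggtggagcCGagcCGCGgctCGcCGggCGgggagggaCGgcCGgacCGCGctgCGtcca
Gm40237 (chr4:118547156-118547455, + strand): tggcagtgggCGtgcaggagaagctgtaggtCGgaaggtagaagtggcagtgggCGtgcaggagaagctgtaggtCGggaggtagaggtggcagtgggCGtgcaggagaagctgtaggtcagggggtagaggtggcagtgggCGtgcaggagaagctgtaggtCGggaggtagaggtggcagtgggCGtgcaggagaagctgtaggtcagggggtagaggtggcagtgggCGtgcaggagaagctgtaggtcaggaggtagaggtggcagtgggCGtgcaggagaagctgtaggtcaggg

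The median difference between Tex15KO and the controls over the 2380 tiles was -0.07 points, and in a small set both Tex15KO pups lay far below every control. In 13 tiles (0.546%) both Tex15KO pups lay 30 points or more below every control, near the 0.457% of all 330110 tested tiles of the genome (3 or more CpGs and 10 or more calls in each library). In 33 tiles (1.39%) they lay 10 points or more below, also near the share in all tested tiles, which was 1.19%. The 33 were unevenly divided, with 28 among the 362 stacked tiles (7.73%) and 5 among the 2018 CpG-dense tiles (0.248%). Most CpG-dense tiles had too little methylation to fall by 10 points. In 2001 of them the Tex15HT level was under 20%, with medians over tiles of 0.54% to 0.79% in the 6 libraries. The 5 comprised 3 of 11 CpG-dense tiles with Tex15HT at 20% to 80% (27.3%) and 2 of 6 at 80% or more (33.3%). The division thus compares tiles of unlike level. No tile had both Tex15KO pups 10 points or more above every control, against 0.53% of all tested tiles. With any margin, 192 of the 2380 tiles had both Tex15KO pups below all controls and 157 had both above, against 4.32% and 8.24% of all tested tiles. Among the stacked tiles 73 lay below (20.2%) and 25 above (6.91%). The shares over all tested tiles were not matched to the members in depth. Over all tested tiles the median level was 100% in Tex15KO 3 and 86.7% to 91.7% in the other 5 libraries.

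An edgeR quasi-likelihood test on methylated and unmethylated calls, adjusted over all 330110 tiles by the Benjamini-Hochberg method, was read for the 2377 tiles with 3 or more CpGs. At an adjusted p under 0.05, 13 tiles (0.547%) were lower in Tex15KO and 0 higher when set against Tex15WT, where 0.00969% of all tested tiles were lower and 0.000303% higher. Against Tex15HT, 10 (0.421%) were lower and 0 higher (background 0.00697% and 0.000909%), and against all controls 19 (0.799%) were lower and 0 higher (0.0394% and 0.000606%). Of these 19, 15 were stacked. The members have 100 or more calls in each library, while the background includes tiles of as few as 10. These shares thus compare tiles of unlike depth, and whether depth accounts for the excess was not tested. Tex15HT and Tex15WT differed at 0 tiles (background 0.000909% lower and 0.0% higher) by edgeR and at 0 by limma (0.0% in both directions). At an unadjusted edgeR p under 0.05, 52 tiles (2.19%) were lower and 38 (1.60%) higher in Tex15HT. The background was 0.186% lower and 0.344% higher, so the members exceeded it in this comparison as well. Limma on log2 ratios called 9 of the 19 tiles lower against controls and 0 higher (background 0.271% lower and 0.00576% higher), so that its share of the members, 0.379%, was near the background. It called 3 tiles (0.126%) lower against Tex15WT (background 0.0963% lower and 0.000303% higher) and 1 (0.0421%) against Tex15HT (0.0612% and 0.00151%), and 0 higher in either, which is also near or under the background.

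These counts rest on few pups. Without Tex15KO 3 the count against controls was 23 lower and 0 higher, with 17 of the 19 among them. Without Tex15KO 16, which leaves the outlying library alone, it was 54 lower and 121 higher. Leaving out Tex15WT 8 or Tex15WT 9 each gave 11, and leaving out Tex15HT 18 gave 8. Against Tex15WT the count fell to 2 without Tex15WT 8 and to 6 without Tex15WT 9. Against Tex15HT it fell to 3 without Tex15HT 7 and to 0 without Tex15HT 18, and also to 6 without Tex15WT 8. In all 6 of these fits, 8 of the 19 tiles kept their call.

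The largest losses were at single stacked tiles scattered over the genome, at each of which the Tex15KO range lay clear of the controls. The tile chr13:40721001-40722000 (24 CpGs) was methylated at 94.0% and 91.7% in the Tex15WT pups, 88.8% and 85.1% in the Tex15HT pups, and 5.48% and 15.3% in Tex15KO 3 and 16. Its mean fell from 89.9% ± 3.84 (SD, n = 4) in controls to 10.4% ± 6.92 (SD, n = 2) in Tex15KO, with an edgeR adjusted p of 2.67e-05, and of 2.93e-05 without Tex15KO 3. All 6 of its CpGs that had 10 or more calls in each library were lower in both Tex15KO pups than in any control.

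The tile chr2:150921001-150922000 (9 CpGs) read 82.9% and 80.5% in the Tex15WT pups, 83.7% and 78.6% in the Tex15HT pups, and 6.97% and 11.1% in Tex15KO (edgeR adjusted p = 1.01e-05 against controls). The controls differed by at most 5.05 points and the loss was 72.4 points, so it was far larger than the spread between pups. The tile chr4:88022001-88023000 (15 CpGs) read 77.2% and 80.7% in the Tex15WT pups, 84.3% and 81.8% in the Tex15HT pups, and 11.3% and 11.8% in Tex15KO (adjusted p = 0.00489). On an unplaced sequence, chrUn_random:1752001-1753000 (15 CpGs) read 81.4% and 69.3%, 73.0% and 82.1%, and 19.8% and 5.05% in the same order (adjusted p = 0.00255). Both groups of controls lay far above Tex15KO at these 2 tiles. The call at chr4:88022001-88023000 was lost without any 1 of the 4 controls (edgeR adjusted p from 0.106 to 0.361), and that at chrUn_random:1752001-1753000 without Tex15WT 8 (0.091) or Tex15HT 18 (0.224). Without Tex15KO 3 both kept it, at 1.38e-04 and 4.67e-07.

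At chr5:15011001-15012000 (23 CpGs) the controls read 67.4% to 86.6% and Tex15KO 2.16% and 16.5% (edgeR adjusted p = 0.0116). At chr12:96823001-96824000 (20 CpGs) they read 67.6% to 82.2% against 10.5% and 11.9% (adjusted p = 0.0247). Both passed against all 4 controls but not against either control group, and both lost the call without any 1 control pup. At these 2 tiles the separation was wide, over 50 points between the nearest Tex15KO pup and control, while the test shares 1 estimate of spread over all tiles.

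In 3 further tiles the Tex15KO mean differed from the control mean by -59.8, -55.6 and -49.8 points and the test was not passed. The CpG-dense tile chr4:121672001-121673000 (29 CpGs) read 71.3% to 81.6% in controls and 17.8% and 19.1% in Tex15KO (edgeR adjusted p = 0.184). The stacked tile chr4:146864001-146865000 (30 CpGs) read 76.4% to 83.1% in controls and 11.6% and 33.9% in Tex15KO (adjusted p = 0.12). In chr5:61624001-61625000 (6 CpGs) the controls read 52.6% to 73.1% and Tex15KO 8.82% and 10.3% (adjusted p = 0.145). In each of these 3 tiles both Tex15KO pups lay below every control.

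The tile chr12:20239001-20240000 shows what a single library can do. It read 78.8% to 83.8% in controls, 46.6% in Tex15KO 16 and 0% in Tex15KO 3, and its edgeR adjusted p of 0.0381 became 0.686 without Tex15KO 3. The call was also lost without any 1 of the 4 controls. It was singled out after its values were seen.

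**Figure D2:**
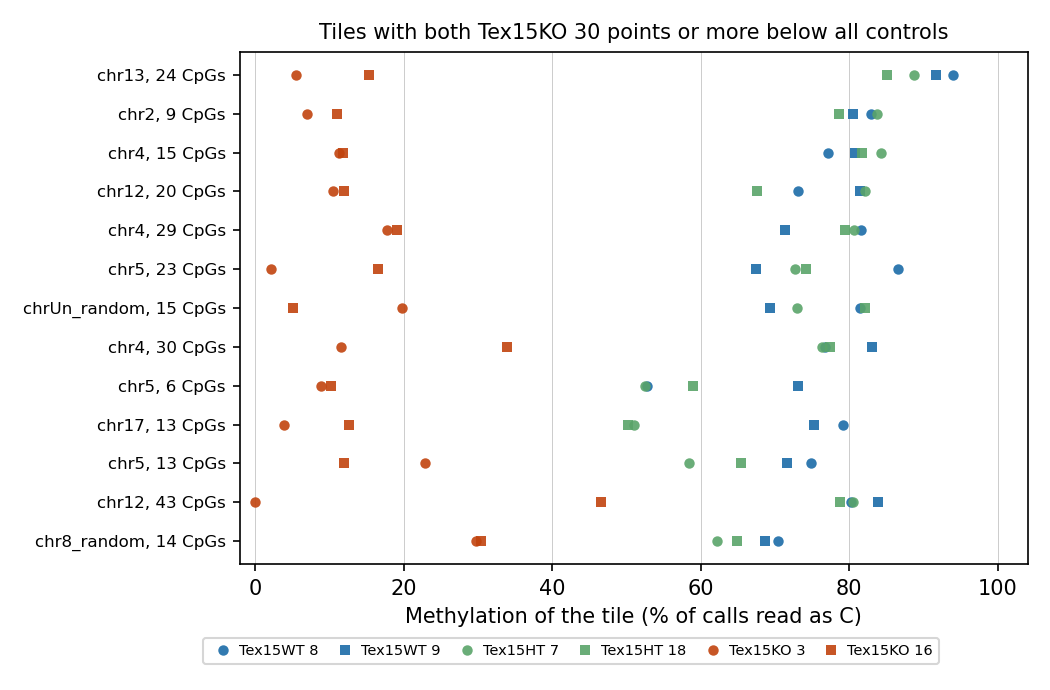
Methylation (%) of the 13 tiles in which both Tex15KO pups lay 30 points or more below every control, 1 row a tile and 1 point a library (blue Tex15WT, green Tex15HT, orange Tex15KO; circles for pups 8, 7 and 3, squares for 9, 18 and 16). In the top row the controls lie between 85.1% and 94.0% and the Tex15KO pups at 5.48% and 15.3%. In the row for chr17 (the Pou5f1 start) Tex15HT lies between the other groups.

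The tiles around Pou5f1 formed 1 stacked interval. All 17 tiles of chr17:35635001-35652000 (mm9) were deeply read, with 68.8 to 150 calls per CpG in the 6 libraries, against 2.75 to 4.95 in the 19 kb on either side, 21.3 to 37.3 times as many. Within the interval, 10 successive CpGs from 1147 to 222 bases before the gene start (chr17:35641830-35642755) lacked the excess and averaged 2.4 to 5 calls. The other 218 CpGs had a median of 66 calls in their shallowest library. Pou5f1, also called Oct4, is the gene whose sequence names the reporter used to sort these cells. Single reads from the gene and from a reporter carrying its sequence cannot be told apart here. At 21.3 to 37.3 times the flanking depth, most calls of the interval were in excess of that depth. The levels below need not be those of the gene's own copies, and the source of the excess was not tested.

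In the tile that holds the Pou5f1 start, chr17:35642001-35643000, the level was 79.2% and 75.2% in the Tex15WT pups, 51.0% and 50.2% in the Tex15HT pups, and 3.86% and 12.7% in Tex15KO 3 and 16. The 3 genotypes did not overlap, and Tex15HT lay between the other two. The difference between Tex15KO and Tex15WT passed the edgeR test (adjusted p = 1.21e-05), and that from the controls did too (2.79e-05, and 3.73e-04 without Tex15KO 3). The difference from Tex15HT did not (0.0873), nor did that between Tex15HT and Tex15WT (adjusted p = 1). Over the printed 300 bases of the promoter, from 531 to 1209 calls per library gave group means of 78.6% ± 2.80 for Tex15WT, 51.6% ± 0.03 for Tex15HT and 9.41% ± 5.05 for Tex15KO (SD over 2 pups each). The 10 CpGs before the start that lacked the excess held only 24 to 50 calls per library. They read 23.3% and 53.8% in Tex15WT 8 and 9, 11.5% and 40.0% in Tex15HT 7 and 18, and 0% and 26.0% in Tex15KO 3 and 16. The 3 genotypes overlapped at these CpGs.

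Within the interval the difference was widest at the start. All 7 well-read CpGs of the start tile were lower in both Tex15KO pups than in every control. In the tile before it, chr17:35641001-35642000, controls read 74.7% to 83.9% and Tex15KO 56.1% and 55.5%, and 6 of 9 well-read CpGs were below all controls (edgeR adjusted p = 1). In the tile after it, chr17:35643001-35644000, controls read 71.1% to 82.3% and Tex15KO 68.1% and 54.5%, with 14 of 27 CpGs below (adjusted p = 1). Both Tex15HT pups were below both Tex15WT pups in these tiles too.

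Farther from the start the interval was highly methylated in all 6 libraries, with smaller differences, and 0 of its tiles there were called. Upstream of the tile before the start, chr17:35640001-35641000 read 87.1% to 94.3% in controls and 82.7% and 86.1% in Tex15KO, and chr17:35639001-35640000 read 83.6% to 89.8% and 81.6% and 83.4%, so both Tex15KO pups lay below all controls there too. Downstream, chr17:35649001-35650000 read 82.4% in Tex15KO 3 and 89.7% to 94.5% in the other 5 libraries. At its far upstream end chr17:35635001-35636000 read 92.3% to 95.2% in controls and 96.6% and 95.1% in Tex15KO. At its downstream end chr17:35651001-35652000 read 87.3% to 90.3% in controls and 90.3% and 90.0% in Tex15KO. A shallower dip about 4 kb past the start, in chr17:35646001-35647000 and chr17:35647001-35648000, was present in all libraries, at 70.3% to 78.5% in controls and 66.4% to 78.1% in Tex15KO. The 17 tiles had a median difference of -0.99 points between Tex15KO and controls, and 1 of the 17 passed the edgeR test.

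**Figure D3:**
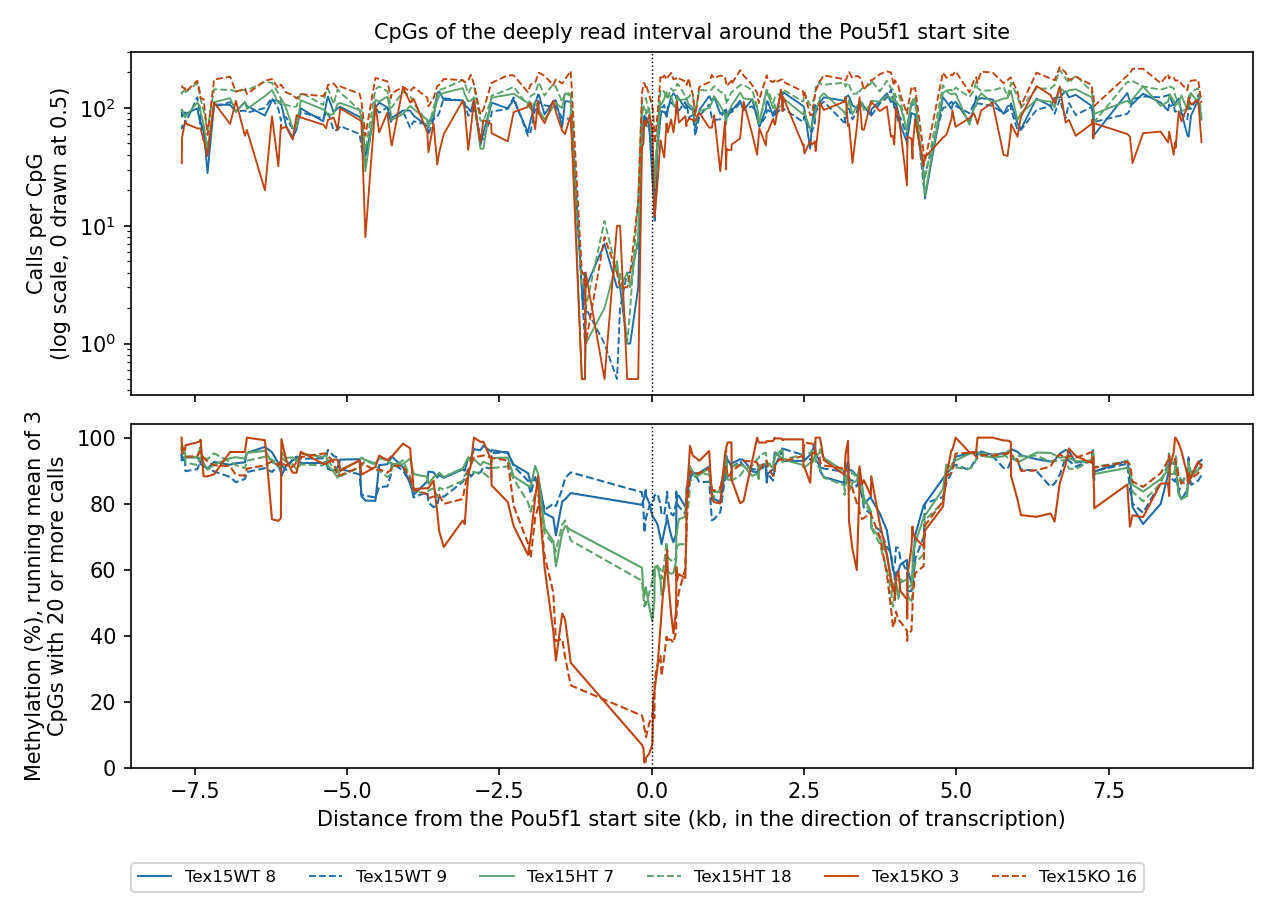
Calls per CpG (top, log scale, 0 drawn at 0.5) and methylation (bottom, %, running mean of 3 CpGs with 20 or more calls) of the 228 CpGs of the stacked interval around Pou5f1, by distance from the gene start in kb, 1 line a library (solid for pups 8, 7 and 3, dashed for 9, 18 and 16). Depth drops over 10 CpGs before the start, where the lower lines only join the CpGs on either side. Around the start Tex15WT stays highest, Tex15HT lies between, and Tex15KO falls lowest.

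A cluster with linked copies on chromosome 8 held the other group of called tiles. Of 30 member tiles in chr8:19703001-20033000, 29 were stacked. Against controls 5 were called lower, where 0.0394% of all tested tiles were. In 8 (26.7%, against 1.19% of all tested tiles) both Tex15KO pups lay 10 points or more below all controls. The median difference of the 30 tiles from controls was -9.27 points, where that over all 362 stacked tiles was -0.45 points and over all tested tiles 2.17 points. The bounds of the cluster were set with these values known, so its counts and median are descriptions only. All 5 calls fell in 3 copies rich in CpGs that were recognised as copies by identical spacing of successive CpGs: chr8:19784001-19786000 and chr8:19892001-19894000 shared a stretch of 16 CpGs over 161 bases, and chr8:19892001-19894000 and chr8:20019001-20021000 shared 13 over 139 bases.

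These copies varied widely among the controls and were low in both Tex15KO pups. The tile chr8:19785001-19786000 (33 CpGs) read 62.4% and 29.7% in Tex15WT pups 8 and 9, 19.5% and 40.1% in Tex15HT pups 7 and 18, and 1.73% and 0.74% in Tex15KO 3 and 16. It was lower in Tex15KO than in Tex15WT (edgeR adjusted p = 1.47e-06), than in Tex15HT (5.72e-04) and than in the controls (1.72e-07, and 1.25e-08 without Tex15KO 3). The first tile of the third copy, chr8:20019001-20020000 (31 CpGs), read 58.0%, 24.7%, 18.3% and 42.5% in the same control order and 1.14% and 1.45% in Tex15KO. In both tiles the order of the controls was the same, with Tex15WT 8 highest and Tex15HT 7 lowest. The Tex15WT and Tex15HT pups overlapped, and both Tex15KO pups lay below every control.

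The 3 tiles chr8:19784001-19785000, chr8:19892001-19893000 and chr8:20020001-20021000 behaved likewise, at 11.8% to 55.1% in controls and 1.09% to 8.30% in Tex15KO. Each of these 3 was called against controls (edgeR adjusted p = 2.73e-05, 6.81e-05 and 0.0116). Without Tex15HT 18 the call was lost at chr8:19892001-19893000 (edgeR adjusted p = 0.144) and chr8:20020001-20021000 (adjusted p = 1), and at the latter also without Tex15WT 8 (0.395). The second tile of the middle copy, chr8:19893001-19894000, kept more methylation, with 48.5% to 70.7% in controls and 32.6% and 31.6% in Tex15KO, and was not called (adjusted p = 1). Reads that fit several copies may have been shared among them, so these 6 tiles are not independent.

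Sparser tiles of the same cluster were mostly methylated in all groups. At chr8:19863001-19864000 (19 CpGs) controls read 77.8% to 83.1% and Tex15KO 49.5% and 51.9%, without a call (edgeR adjusted p = 1). At chr8:19919001-19920000 (5 CpGs) controls read 83.0% to 88.7% and Tex15KO 91.5% and 86.6%. Both tiles were singled out after their values were seen.

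**Figure D4:**
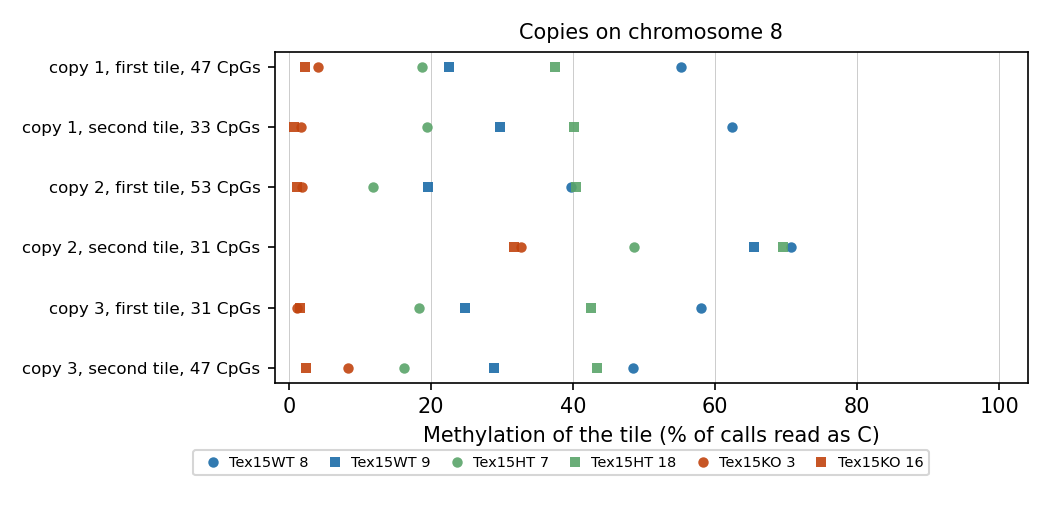
Methylation (%) of the 6 tiles of 3 linked copies on chromosome 8, 1 row a tile and 1 point a library (blue Tex15WT, green Tex15HT, orange Tex15KO; circles for pups 8, 7 and 3, squares for 9, 18 and 16). Controls spread between 11.8% and 70.7%, and Tex15KO lies between 0.74% and 8.30% except in the second tile of copy 2, where it lies near 32%.

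A second group of linked copies, on chromosome 4, separated the controls by genotype. In 5 CpG-dense tiles of 4 regions (chr4:145230001-145231000, chr4:146034001-146036000, chr4:146649001-146650000 and chr4:147112001-147113000) the median level was 15.3% and 25.9% in Tex15WT 8 and 9, 4.85% and 4.16% in Tex15HT 7 and 18, and 4.06% and 2.74% in Tex15KO 3 and 16. Both Tex15WT pups were above both Tex15HT pups in all 5 tiles. Reads that fit several copies may have been shared among them, so these 5 tiles are not independent. In all 5 the Tex15KO mean was 10 points or more below the Tex15WT mean, while the median difference between Tex15KO and Tex15HT was 0.08 points. None of the 5 was called by edgeR for Tex15KO against Tex15WT (adjusted p from 0.236 to 0.999), for Tex15KO against controls (0.145 to 1) or for Tex15HT against Tex15WT (adjusted p = 1).

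The 6 deepest stacks with low methylation showed small shifts. The tile chr3:5860001-5861000 (43 CpGs, at least 6021 calls in each library) read 8.17% and 13.2% in the Tex15WT pups, 6.06% and 10.9% in the Tex15HT pups, and 1.99% and 3.17% in Tex15KO 3 and 16. It was the tile with the lowest adjusted p among the 2377, at 1.47e-11 against controls and 0.0057 without Tex15KO 3, and 22 of its 36 well-read CpGs were below all controls. The difference of 6.99 points compares with a control SD of 3.11, and limma did not call it (adjusted p = 0.515). Pups 9 and 18 were the highest of the controls in this tile.

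The tiles chr16:11144001-11145000 (52 CpGs) and chr5:147072001-147073000 (39 CpGs) were also called lower, from 7.39% ± 3.38 to 3.13% ± 0.43 and from 6.96% ± 1.46 to 2.45% ± 0.48 (SD, n = 4 controls and 2 Tex15KO), with edgeR adjusted p of 0.00255 and 0.00374. Limma called neither (adjusted p = 0.631 and 0.556). The first lost its call without Tex15WT 9 or Tex15HT 18 and the second without Tex15WT 9, Tex15HT 18 or Tex15KO 3. In chr16:57391001-57392000 (58 CpGs) Tex15KO 3 lay among the controls, at 6.57%, and the tile was not called (adjusted p = 0.441).

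One of these low stacks was linked by CpG spacing to tiles of lower depth. The tile chr16:11144001-11145000 shared 22 CpGs over 156 bases with chr9:56071001-56072000, 18 over 132 bases with chr13:9833001-9834000, which are both stacked, and 14 over 103 bases with the CpG-dense tile chr1:169270001-169271000. Levels of the whole tiles still differed: controls read 11.9% to 23.3% at chr13:9833001-9834000 and 0.77% to 5.26% at chr1:169270001-169271000. The former fell to 3.08% and 0.89% in Tex15KO (edgeR adjusted p = 0.0231), a call that was lost without any 1 of the 4 controls. At the latter Tex15KO 3 read 39.6% and Tex15KO 16 0.94%. The tile chr6:3151001-3152000 shared 15 CpGs over 164 bases with the Rn45s copy, which was itself left out. It read 13.3% to 19.8% in controls and 11.2% and 3.84% in Tex15KO (adjusted p = 0.125).

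In a family of 5 regions around chr16:57391001-57392000, chr8:15519001-15520000 (24 CpGs) stood lowest in Tex15KO relative to its controls. It read 20.1% to 28.4% in controls and 4.79% and 3.83% in Tex15KO, and all 9 well-read CpGs were below all controls. It was not called (edgeR adjusted p = 0.241). The tile chr18:68851001-68852000 was linked to chr16:57391001-57392000 and not directly to chr8:15519001-15520000. It read 3.51% to 7.86% in controls and 10.3% and 2.75% in Tex15KO, so Tex15KO overlapped the controls there. Whole tiles linked by CpG spacing thus differed in level in both families. The linked stretches cover only part of each tile, and levels over those stretches alone were not computed.

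The tile where reads piled up most had intermediate methylation in all groups. This tile, chr6:103599001-103600000 (9 CpGs, at least 38442 calls in each library), read 27.5% and 31.1% in the Tex15WT pups, 26.0% and 26.7% in the Tex15HT pups, and 28.4% and 29.1% in Tex15KO. Only 4 of its 9 CpGs had 10 or more calls in each library, at positions 103599049 to 103599281, and these lay between 25.8% and 31.0% in the control mean. The difference between Tex15KO and controls was 0.95 points, less than the spread among controls (edgeR adjusted p = 1).

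The deepest tiles on unplaced sequences were also intermediate. The tiles chrUn_random:5495001-5496000 (15 CpGs) and chrUn_random:5496001-5497000 (21 CpGs) read 39.9% to 42.7% and 31.2% to 35.4% in controls, and 42.5% to 42.9% and 34.7% to 34.8% in Tex15KO. The smaller tile chrUn_random:5249001-5250000 (11 CpGs) read 32.8% to 37.3% in controls and 36.6% and 36.0% in Tex15KO. Single CpGs of chrUn_random:5249001-5250000 differed strongly from one another: that at position 5249606 read 50.8% to 55.4% in the 6 libraries and that at 5249414 read 9.69% to 16.1%, each from at least 1000 calls in every library. Their order was not the same in all libraries, since the CpG at 5249372, with at least 61 calls, read 65.2% in Tex15KO 16, above that at 5249606, and 32.8% in Tex15KO 3. A pooled level of such a tile depends on which CpGs are read.

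**Figure D5:**
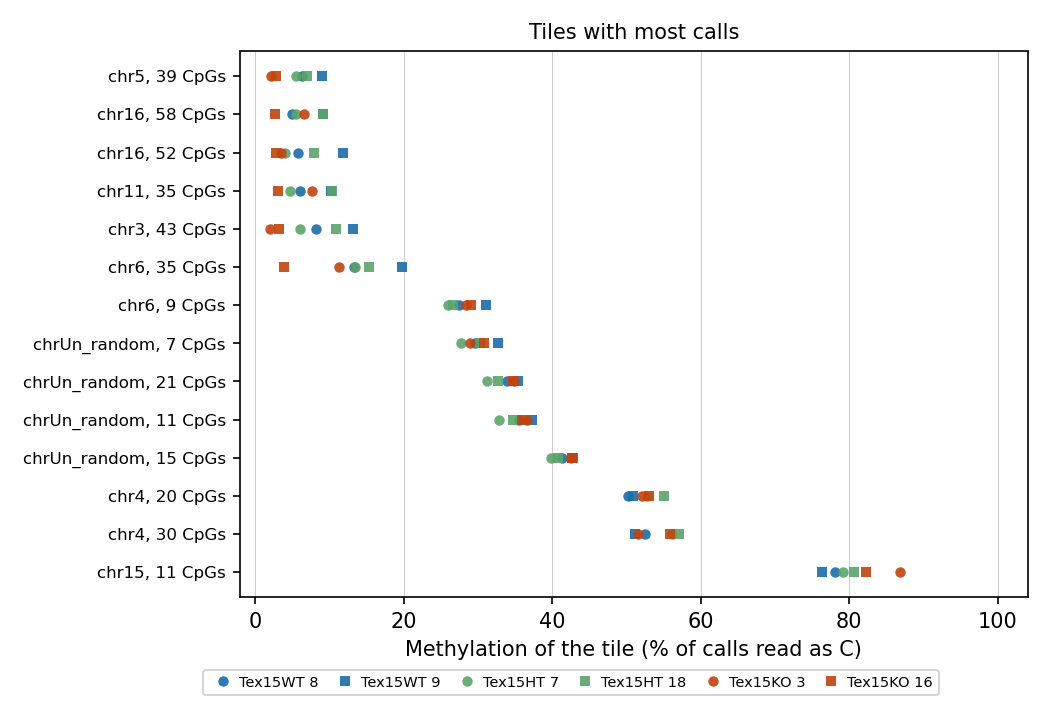
Methylation (%) of the 14 stacked tiles with most calls in the shallowest library, ordered by the mean of the controls, 1 row a tile and 1 point a library (blue Tex15WT, green Tex15HT, orange Tex15KO; circles for pups 8, 7 and 3, squares for 9, 18 and 16). The 6 low tiles at the top spread between 1.99% and 19.8%, with Tex15KO 16 lowest or second lowest. The tiles below them overlap between groups, except the last, where Tex15KO reads 82.2% and 86.8% and the controls 76.3% to 80.7%.

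Longer stacked blocks were chosen after their values were seen. The 59 stacked tiles of chr1:90108001-90204000, a cluster that holds the Hjurp start, had median levels of 68.6% to 73.4% in controls and 74.7% and 72.8% in Tex15KO. By edgeR 0 of them were called against controls, where 0.0394% of all tested tiles were lower and 0.000606% higher. Single tiles were less even: both Tex15KO pups lay above all controls in 8 (13.6%) and below in 1 (1.69%). The shares were 8.24% above and 4.32% below in all tested tiles, and 6.91% and 20.2% in all stacked tiles. In this cluster Tex15KO 3 was the highest library in 30 tiles and lay 10 points or more outside the other 5 in 14. The tile chr1:90175001-90176000 (9 CpGs) read 72.4% in Tex15KO 3, 41.1% in Tex15KO 16 and 42.3% to 54.8% in controls. The start tile of Hjurp, chr1:90174001-90175000 (46 CpGs), read 1.75% to 4.22% in controls and 0.76% and 2.85% in Tex15KO, and its printed promoter held 383 to 670 calls per library at 0.50% to 1.79%. An unmethylated island thus sat inside a methylated stacked cluster in all 6 libraries.

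Intermediate blocks kept their level over several kb. The 8 tiles of chr10:7229001-7237000 had medians of 53.3% to 54.1% in controls and 53.5% and 52.3% in Tex15KO. The 3 tiles of chr4:118219001-118222000, with the Gm40237 start, had medians of 50.7% to 55.1% in controls and 51.5% and 54.6% in Tex15KO. The printed Gm40237 promoter is itself repetitive: shifted against itself by 88 bases it matched at 97.6% of positions, the best of shifts from 10 to 150 bases, whereas the Pou5f1 promoter matched itself at 35.2% at best. Its 10 CpGs gave 50.6% to 53.2% in controls and 49.6% and 54.8% in Tex15KO.

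The start tile shared by Tmem267 and 3110070M22Rik, chr13:120277001-120278000 (97 CpGs), is a CpG-rich stack that was methylated in every library. It read 72.1% and 66.3% in the Tex15WT pups, 60.5% and 70.0% in the Tex15HT pups, and 64.5% and 72.4% in Tex15KO. The printed Tmem267 promoter read 68.6% ± 7.02, 70.7% ± 7.86 and 69.3% ± 1.16 in the 3 genotypes (SD, n = 2 each), with no difference beyond the spread between pups.

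The stacked tiles were divided by level, and the shares over all tested tiles of the same class are given beside each count. Those shares include tiles of as few as 10 calls in each library and are not matched in depth. Of 69 with a Tex15HT level under 20%, 19 had both Tex15KO pups below all controls and 2 above (27.5% and 2.90%, against 5.29% and 4.97% of all tested tiles), and 0 lay below by 10 points or more (0.0546% of all). Of 191 between 20% and 80%, 37 lay below and 17 above (19.4% and 8.90%, against 8.65% and 10.7%), and 23 lay below by 10 points or more (12%, against 4.0%). Of 102 at 80% or more, 17 lay below and 6 above (16.7% and 5.88%, against 3.31% and 8.28%), and 5 below by 10 points or more (4.90%, against 0.814%). The share below by 10 points or more was highest in the middle class both in the stacked tiles and in all tested tiles. Among CpG-dense tiles that share was 27.3% (3 of 11) at 20% to 80% and 33.3% (2 of 6) at 80% or more. The median difference from controls was -1.45, 0.0005 and 0.002 points in the 3 classes. The same medians over all tested tiles of the 3 classes were -0.37, 3.92 and 2.69 points.

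The 2018 CpG-dense tiles were almost all unmethylated. A Tex15HT level under 20% was found in 2001 of them, where the median was 0.54% to 0.79% in the 6 libraries. The 3 named tiles with the lowest Tex15WT level and most calls, chr11:6315001-6316000 at the start of Ppia, chr14:58417001-58418000 and chr1:155179001-155180000, read 0% in both Tex15WT pups and at most 2.75% in any library. In total 203 tiles with 5 or more CpGs read 0% in both Tex15WT pups. Ppia encodes cyclophilin A, a housekeeping protein.

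By edgeR 4 of the 2018 CpG-dense tiles (0.198%) were lower in Tex15KO than in controls and 0 higher, 1 of the 4 on chromosome 8 described above. Over all tested tiles 0.0394% were lower and 0.000606% higher, shares that are not matched in depth. The start tile of Ppp2r5a, which encodes a regulatory subunit of protein phosphatase 2A, is chr1:193220001-193221000 (101 CpGs). It read 8.67% and 7.49% in the Tex15WT pups, 5.56% and 3.41% in the Tex15HT pups, and 0% and 0.26% in Tex15KO (edgeR adjusted p = 0.00669 against controls), and lost its call without any 1 of the 4 controls. The tile chrUn_random:4340001-4341000 (96 CpGs) read 8.21% to 18.9% in controls and 0.42% and 1.03% in Tex15KO, with an adjusted p of 7.02e-04, and of 0.0103 without Tex15KO 3.

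The most methylated of the named tiles lay in 1 stacked block of chromosome 17. In Tex15WT, chr17:6448001-6449000, chr17:6449001-6450000 and chr17:6456001-6457000 read 93.3% to 97.6%. Their Tex15KO levels were 86.7% to 99.4% and overlapped the controls in all 3. The widest spread among controls was 42.9 points, in chr8:19785001-19786000, followed by 39.8 points in chr8:20019001-20020000 and 39.2 points in the CpG-dense tile chr6:101101001-101102000, which read 0% in Tex15HT 7 and 39.2% in Tex15HT 18.

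At the threshold itself 53 tiles had exactly 100 calls in their shallowest library and 68 tiles had 99. Just inside, chr10:80784001-80785000 (47 CpGs) read 0.96% to 3.80% and chr11:116029001-116030000 (30 CpGs, at the start of Fbf1) 0% to 1%. Just outside, chr11:118951001-118952000 (41 CpGs) read 0% to 2.75%, and chr11:120098001-120099000 (47 CpGs) read 0% to 1.79% in 5 libraries and 44.6% in Tex15KO 3.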

How the data were processed

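The authors deposited 1 table of counts per cytosine of a CpG (calls read as C, as T, and their sum) for 6 libraries, per the file headers. The build is mm9, and BSMAP, Bismark and methylKit were used, per the submitters' processing notes, which give no version or role. How reads with several matches were placed is not given in the sources used here. Strands were merged and calls summed over 1 kb tiles. The edgeR 4.0.16 quasi-likelihood test (R 4.3.3, an intercept per library) was fitted to 330110 tiles with 3 or more CpGs and 10 or more calls in each library. It was tested on simulated data with 200 changed tiles, of which 100% were recovered, with 2 false calls among the other tiles. The changed tiles were mostly methylated ones with 100 or more calls in each library, given a large shift. Every simulated library had the same small spread, without an outlying library such as Tex15KO 3. The simulation therefore does not give the recovery or the false calls of the test in these data. The prior degrees of freedom came out infinite, so all tiles share 1 spread and the p-values do not measure the spread between pups at a tile. Alternatives used limma 3.58.1 with a pseudocount of 1, other minimum calls, thinning, and libraries left out. Calls from 1 read are not independent. Tiles were named as called or most separated from controls, deepest, highest, lowest, most variable among controls or nearest the threshold. Members and lists were chosen with earlier results of these data known. RefSeq promoters with 8 or more CpGs were placed by CpG spacing: 6481 of 15982 were placed.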

Additional observations from a re-analysis of the deposited data

How the results depend on the processing

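No paired analysis was possible because the labels give no replicate number shared between groups. Apart from limma, the shares of all tested tiles called under the settings below are not given, so these counts have no background of their own. With 30 calls in place of 10 the counts of called tiles were 21 against Tex15WT, 18 against Tex15HT (17 lower, 1 higher) and 26 against controls (24 lower, 2 higher). They were 3, 1 and 9 with limma, and 0 in all 3 after thinning each tile to its shallowest library. In the thinned fit 89 tiles were lower and 46 higher against controls at an unadjusted edgeR p under 0.05. Its prior degrees of freedom were 2.55 and not infinite, so thinning changed the test as well as the depth. Over the 14 named called tiles the differences from controls ran from -78.5 to -6.68 points thinned and from -79.5 to -6.99 points unthinned. Among tiles with 300 or more calls, 5 were called against Tex15HT and 9 against controls, a smaller set by construction. Otherwise the cause was not tested. Counts with 1 library left out ran from 2 to 112 against Tex15WT, from 0 to 103 against Tex15HT and from 8 to 175 against controls. The count of Tex15HT against Tex15WT was 0 under each of these settings. The highest counts came without Tex15KO 16, in which case the lone Tex15KO 3 is assumed to vary like the other groups. With 300 or more calls the median difference over all tiles was -0.49 points against Tex15WT, -0.57 against Tex15HT, -0.23 against controls and -0.52 for Tex15HT against Tex15WT. With 1 library left out these 4 medians ran from -0.22 to 0.080, from -0.19 to 0.17, from -0.26 to -0.027 and from -0.19 to 0 points. For the stacked tiles they ran from -0.64 to -0.21, from -1.28 to -0.69, from -1.10 to -0.39 and from -0.32 to 0.53 points. A division at 10 calls per CpG, chosen after seeing the data, gave -0.09 points against controls. Of 47 named tiles, 14 were called against controls. In all 14 both Tex15KO pups lay below every control, so leaving out a library could not reverse the direction. The runs with 30 calls and with limma used the same levels, so they could not reverse it either. None of the 14 reversed in the other runs. Limma kept 9 of the 14 calls and thinning kept 0. Depth limits the CpG-dense tiles, at about 3 to 5 calls per CpG.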
